A study of Mus musculus with 28 samples.

Results

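The S100 proteins are small calcium-binding proteins of vertebrates. The 10 members described here are S100a1, S100a4, S100a6, S100a8, S100a9, S100a10, S100a11, S100a13, S100a14 and S100a16, a list chosen for this description and matched by gene symbol to the Ensembl identifiers of the count files. Thus 10 of the 56748 genes counted were followed. All 10 lie on mouse chromosome 3. They were read in total RNA of 28 libraries from 2 mouse mammary cell lines. The 4T1 DOX group (8 libraries) is a cancer line, a mouse mammary carcinoma known for spreading from the primary tumour. HC11 DOX + DIP (10 libraries) and HC11 DOX (10 libraries) are an untransformed mammary epithelial line that was taken from the gland of a pregnant mouse. DOX is in the treatment label of every library, and DIP was added in 1 of the HC11 groups. The labels spell out neither abbreviation and name no dose, time, construct or culture. Each group is thus a single established line under a named condition, and a difference between the lines is a difference between these 2 lines. The series title places the work in the setting of lactogenic differentiation and breast cancer.

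Most S100 proteins form dimers, bind calcium through a pair of EF-hand motifs and, once loaded, expose a surface that grips other proteins such as annexins, cytoskeletal proteins and kinases. Several also leave the cell and act on surface receptors, of which RAGE (Ager) and TLR4 are the best known. In breast tissue S100A4 is known for its link to metastasis in mice and patients, and S100A8 with S100A9 for marking neutrophils and monocytes.

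The members sit in a cluster that also holds most of the other mouse S100 genes. In the order of the chromosome it runs S100a1, S100a13, S100a14, S100a16, S100a3, S100a2, S100a4, S100a5, S100a6, S100a7a, S100a8 and S100a9, with 0 other protein-coding genes between neighbours in GENCODE vM21. S100a11 and S100a10 lie beside each other farther along, with 60 protein-coding genes between S100a9 and S100a11. S100a7l2 and S100a17 are also on chromosome 3, but stand under other symbols in this annotation and were not placed in the order. S100a1 and S100a13 point away from each other, and only 42 bases separate them. That gap is shown because these neighbours had the most alike patterns over the 28 libraries of any pair among the 8 members with more than a few counts. The S100a4 stretch is shown because this gene rose most in 4T1, with its TATA box in capitals, and the S100a16 stretches because that gene fell strongly in 4T1, with a GC box in capitals in the second of them. The last 3 stretches are the 150 bases before an annotated start. The bases come from RefSeq (GRCm38.p6) and are written 5′ to 3′ on the plus strand.
Gap between S100a1 and S100a13, chr3:90514393-90514434: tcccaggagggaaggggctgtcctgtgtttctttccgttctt
S100a4, chr3:90603620-90603769: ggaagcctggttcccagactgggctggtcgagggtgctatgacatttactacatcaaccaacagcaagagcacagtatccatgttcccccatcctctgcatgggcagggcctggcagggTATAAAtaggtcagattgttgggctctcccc
S100a16, first start, chr3:90537104-90537253: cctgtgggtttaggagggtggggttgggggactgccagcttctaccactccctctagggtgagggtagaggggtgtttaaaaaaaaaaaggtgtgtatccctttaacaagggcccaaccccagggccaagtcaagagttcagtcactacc
S100a16, second start, chr3:90540996-90541145: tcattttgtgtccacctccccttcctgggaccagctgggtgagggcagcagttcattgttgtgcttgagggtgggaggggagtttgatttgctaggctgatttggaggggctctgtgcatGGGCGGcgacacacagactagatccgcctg

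RefSeq windows of 300 bases (250 before and 50 after a start) were at hand for 8 of the 10 members, in 9 windows, and not for S100a10 and S100a14. The TATA box (TATAAA, searched on both strands, as were all motifs) stood in the windows of S100a4, S100a8 and S100a9, and in 13.6% of all 32851 windows. In S100a4 it begins 31 bases before the start. The AP-1 motif (TGANTCA) was found in S100a11, at 2 places, and once at the second start of S100a16, against 7.81% of all windows. A palindrome of the glucocorticoid receptor type (ACANNNTGT, 6.85% of all windows) was found once, in S100a8, and the STAT-type palindrome (TTCNNNGAA, 8.3% of all windows) in 0 of the 9. The GC box (GGGCGG, 35.7% of all windows) occurred in S100a9, S100a11 and the second start of S100a16. CpG pairs were most frequent in the windows of S100a11 (15), S100a13 (14) and S100a1 (11) and least frequent in those of S100a4 and S100a9 (2 each) and at the first start of S100a16 (2), with a median of 7 over all windows. These are matches of letters only.

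Depth ran from 134117581 to 222065843 counts per library, and a count of 0 allows at most 3 counts, or 0.0135 to 0.0224 CPM (a library's counts scaled to a common total), for counting error alone. The labels tie no library to a culture, so p-values measure the spread between libraries, which may be technical. All 10 mammary epithelial markers looked at, such as Epcam, Cdh1 and Krt8, reached 1 CPM in at least 1 library of every group, but Trp63 did so in 4T1 DOX only in libraries 1 and 2 (2.71 and 3.65 CPM), with 0.510 to 0.863 CPM in the other 6. Markers of other cell types were followed as well. The sum of 14 myeloid markers was 15.0 to 22.8 CPM in 4T1 DOX, 10.3 to 27.9 CPM in HC11 DOX + DIP and 8.94 to 12.6 CPM in HC11 DOX, and 12 of the 14 stayed under 1 CPM in every library. The sum of 9 fibroblast markers was 20.0 to 62.1 CPM in 4T1 DOX, 58.2 to 2833 CPM in HC11 DOX + DIP and 339 to 1205 CPM in HC11 DOX, most of it Postn. Without HC11 DOX + DIP libraries 8 and 10, at 58.2 to 69.9 CPM, the fibroblast sum with DIP was 1275 to 2833 CPM, above all HC11 DOX libraries. Collagen markers went the other way. Without those libraries the medians of Col1a1, Col1a2 and Col3a1 with DIP were 10.6, 1.84 and 5.60 CPM. In HC11 DOX they were 26.7, 4.73 and 53.7 CPM. The medians of the other fibroblast markers were higher with DIP. HC11 DOX + DIP libraries 8 and 10 stood apart from the other 8 of their group, with epithelial markers summing to 569 to 677 CPM against 1783 to 2449 CPM in the other 8. All HC11 DOX + DIP libraries were below the 3093 to 4475 CPM of 4T1 DOX and the 3674 to 8104 CPM of HC11 DOX. 4T1 DOX libraries 1 and 2 carried more RNA of genes typical of HC11 than the others. Results that rest on these libraries are given with and without them.

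The 4T1 cells held far more S100 RNA than HC11 cells. The 10 members together made up 2867 to 4635 CPM in 4T1 DOX (3505 ± 615, SD, n = 8), 257 to 933 CPM in HC11 DOX + DIP (649 ± 211, n = 10) and 614 to 1032 CPM in HC11 DOX (841 ± 147, n = 10). Every 4T1 library lay above every HC11 library in this sum. S100a6 carried most of it in 4T1 DOX, at a mean of 2245 CPM, while S100a14 and S100a16 were lower there than in either HC11 group. The 2 lowest sums, 257 and 378 CPM, were those of HC11 DOX + DIP libraries 8 and 10. In bulk RNA, fewer cells of a type and less RNA per cell cannot be told apart.

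The make-up of that RNA differed as well. To set genes beside each other, levels were divided by the length of all annotated exons of a gene, which may differ from that of the RNA made. Per kilobase of exon, S100a6 led in 4T1 DOX at 1642 ± 305 CPM per kb, followed by S100a11 (1042 ± 182), S100a4 (446 ± 149) and S100a10 (362 ± 38.9). S100a6 was above S100a11 in 8 of 8 libraries there, while S100a4 was above S100a10 in only 5 of 8. In HC11 DOX + DIP, S100a11 led at 267 ± 79.9 CPM per kb, followed by S100a6 (210 ± 97.4) and S100a10 (86.1 ± 15.1), and S100a11 was above S100a6 in 8 of 10 libraries. In HC11 DOX, S100a11 led at 480 ± 81.9 CPM per kb, ahead of S100a6 (223 ± 56.6) and S100a10 (121 ± 24.1) in 10 of 10 libraries. The lead of S100a11 in HC11 rests on the exon lengths used, 511 bases for S100a11 and 1367 for S100a6. In mean CPM S100a6 was above S100a11, at 287 against 137 in HC11 DOX + DIP and 305 against 245 in HC11 DOX.

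The lower ranks also changed places. S100a1, S100a13, S100a16 and S100a14 followed at 25.4, 12.5, 1.05 and 0.466 CPM per kb in 4T1 DOX, in that order in 8 of 8 libraries. In HC11 DOX + DIP, S100a1 (46.9), S100a16 (32.2), S100a13 (15.3), S100a4 (12.4) and S100a14 (10.6) followed. In HC11 DOX, S100a16 (42.9), S100a1 (25.3), S100a14 (23.6), S100a4 (15.0) and S100a13 (9.93) followed. Some neighbours in these orders did not separate: S100a4 was above S100a14 in 4 of 10 HC11 DOX + DIP libraries, and S100a1 above S100a14 in 6 of 10 HC11 DOX libraries. S100a8 and S100a9 were last in every group.

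**Figure D1:**
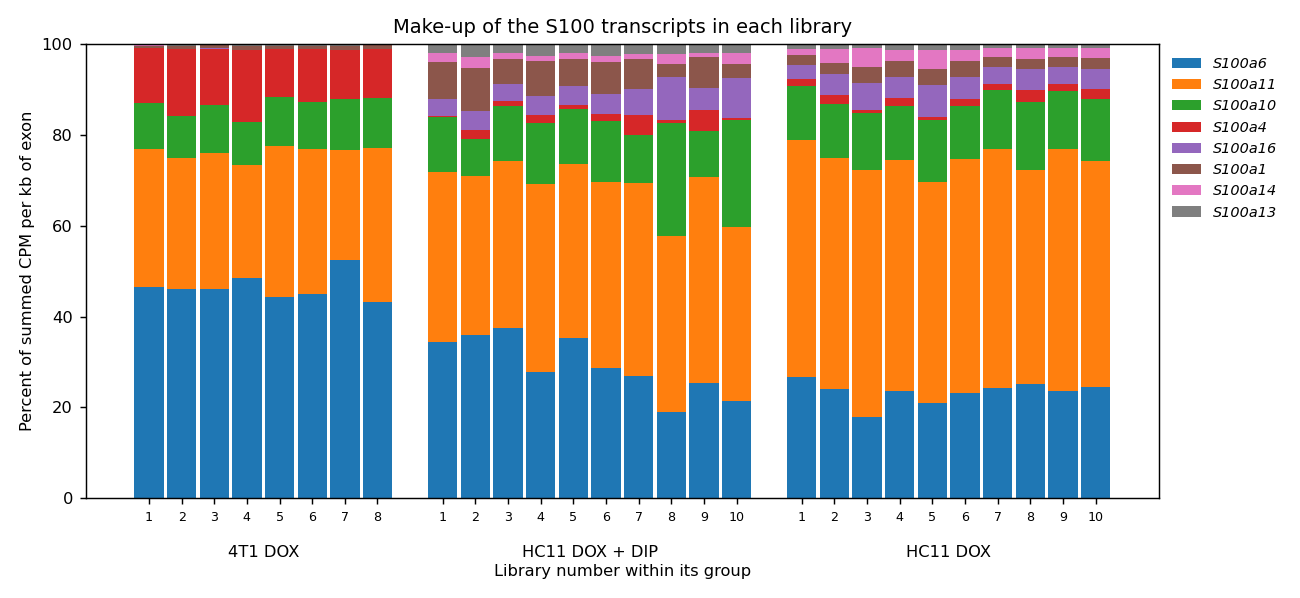
Share of each S100 gene in the summed CPM per kb of exon (vertical axis, percent), by library (horizontal axis) in the 4T1 DOX, HC11 DOX + DIP and HC11 DOX groups. S100a6 averages 46.5% in 4T1 DOX, 29.2% in HC11 DOX + DIP and 23.4% in HC11 DOX, and S100a11 averages 29.7%, 39.5% and 51.1% in the same order of groups.

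Between 4T1 DOX and HC11 DOX, 4 members with cytoskeletal and membrane partners rose in 4T1, while S100a14 and S100a16 fell to medians of 0.528 and 1.07 CPM. S100a4 was 29.8-fold and S100a6 7.33-fold higher, S100a10 and S100a11 were 2.98-fold and 2.17-fold higher, and S100a14 and S100a16 were 51.2-fold and 41.4-fold lower. With S100a13, 5 members rose and 2 fell, 1 did not pass the test (S100a1) and 2 were too low to be tested (S100a8 and S100a9), at an adjusted p under 0.05 in the quasi-likelihood test of edgeR, with p-values adjusted by Benjamini-Hochberg over all genes. Of all 23875 genes tested, 69.9% passed in this comparison, 34.3% upward and 35.6% downward, so a call by itself is common. The median log2 fold change of the 8 members tested was 0.72, against -0.01 for all genes tested.

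S100a4, also called metastasin, binds non-muscle myosin and is known for promoting metastasis of mouse mammary tumours. Its level was 182, 232 and 408 CPM (lowest, median, highest) in 4T1 DOX and 2.74, 8.25 and 15.7 CPM in HC11 DOX. The log2 fold change was 4.89 ± 0.31 (SE; adjusted p = 2.75e-11, edgeR). All 8 4T1 libraries lay above all 10 HC11 DOX libraries, and 4T1 libraries 2 and 4 were the highest. Without 4T1 libraries 1 and 2 the change was 4.78 on the log2 scale. The predicted gene Gm42674 shares exon bases with S100a4 and had 0.803 to 0.882 times its count in 4T1 DOX, 0.864 to 1.46 times in HC11 DOX + DIP and 0.901 to 0.958 times in HC11 DOX. Reads from the shared bases cannot be assigned to either gene with certainty. S100A4 also has the name fibroblast-specific protein; of the 8 fibroblast markers that could be tested 7 fell in 4T1 and 0 rose, where 35.6% of all genes fell. Their part in the S100a4 result was not tested.

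S100a6, or calcyclin, binds annexins, tropomyosin and the Siah-interacting protein Cacybp. It was the member with the most RNA in 4T1 DOX, at 1750, 2078 and 2968 CPM (lowest, median, highest), against 171, 322 and 427 CPM in HC11 DOX. The log2 fold change was 2.87 ± 0.15 (adjusted p = 1.61e-12, edgeR), and the groups were far apart. The count of S100a6 was 7.17 to 11.3 times that of its neighbour S100a4 in 4T1 DOX and 22.3 to 69.7 times in HC11 DOX, with no overlap, so the rise of S100a4 was the steeper of the pair.

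S100a10, or p11, does not depend on calcium and forms a tetramer with annexin A2 at the plasma membrane, where it is known as a docking site for plasminogen. Its level was 388, 425 and 527 CPM in 4T1 DOX and 98.1, 153 and 183 CPM in HC11 DOX. The log2 fold change was 1.58 ± 0.11 (adjusted p = 8.93e-11, edgeR), and all 4T1 libraries were above all HC11 DOX libraries. Anxa2, the partner, was itself higher in 4T1 DOX, at 966, 1081 and 1260 CPM against 509, 618 and 738 CPM in HC11 DOX (log2 fold change 0.86 ± 0.08, adjusted p = 5.87e-09, edgeR). Anxa2 is named in this comparison for its bond with S100a10 and was chosen with its values known. The count of Anxa2 was 2.35 to 2.94 times that of S100a10 in 4T1 DOX and 3.32 to 5.30 times in HC11 DOX.

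S100a11, or calgizzarin, binds annexin A1 and takes part in membrane repair. Its level was 356, 530 and 692 CPM in 4T1 DOX and 182, 251 and 311 CPM in HC11 DOX. The log2 fold change was 1.12 ± 0.11 (adjusted p = 3.45e-08, edgeR), again with no overlap. The lowest 4T1 library, number 7, was still above the highest HC11 DOX library.

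S100a14 and S100a16 lie beside each other in the cluster. S100A14 is known from human epithelia, where it can be released and bind RAGE, and S100a16 has been described in mouse preadipocytes as promoting fat cell formation. The level of S100a14 was 0.285, 0.528 and 1.94 CPM in 4T1 DOX and 29.6, 39.1 and 57.9 CPM in HC11 DOX, a log2 fold change of -5.68 ± 0.35 (adjusted p = 2.24e-11, edgeR). The level of S100a16 was 0.802, 1.07 and 4.05 CPM in 4T1 DOX and 53.5, 67.2 and 93.3 CPM in HC11 DOX, a log2 fold change of -5.37 ± 0.32 (adjusted p = 1.52e-11, edgeR). Neither gene overlapped between the lines, while S100a13 and S100a3, the S100 genes on either side of the pair, were called higher in 4T1. The S100a13 change was small (log2 fold change 0.33), its groups overlapped and its call was lost in some alternatives given below.

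The little S100a14 and S100a16 RNA that 4T1 libraries did hold was highest or nearly so in libraries 1 and 2, as was that of other genes typical of HC11, which were chosen with their values known. In 4T1 DOX library 2, S100a14 was at 4.77% and S100a16 at 5.84% of their HC11 DOX mean, beside Krt5 at 3.14%, Trp63 at 4.38% and Fgfr1 at 5.06%. In library 1 these 5 genes stood at 3.04%, 3.19%, 2.08%, 3.24% and 3.36%. In library 4 the genes parted, with S100a14 at 2.51% and S100a16 at 3.74%, and Krt5 at 0.806%, Trp63 at 1.03% and Fgfr1 at 1.51%. The other 5 libraries held 0.699% to 1.36% for S100a14 and 1.16% to 1.63% for S100a16. Egfr stood at 7.39% in library 2, 5.27% in library 1 and 2.81% to 4.29% in the other 6. Without libraries 1 and 2, S100a14 was 73.7-fold and S100a16 56.0-fold lower in 4T1 DOX. The source of this residual signal was not tested.

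**Figure D2:**
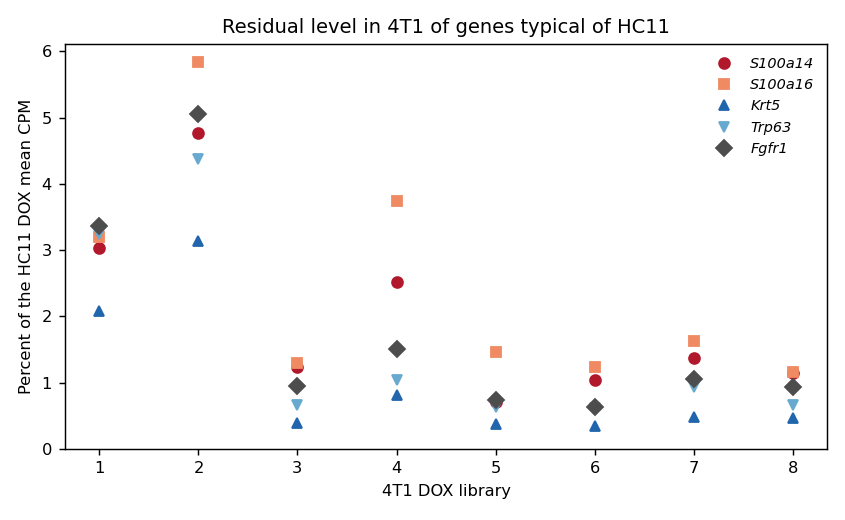
Level of S100a14, S100a16 and 3 other genes typical of HC11 in each 4T1 DOX library (horizontal axis), as a percent of the gene's mean CPM in HC11 DOX (vertical axis). All 5 genes are highest in library 2 and next highest in library 1, except S100a16, whose library 4 (3.74%) is above library 1 (3.19%).

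S100a13 and S100a1 share their start region and differed little between the lines. S100a13 takes part in the export of FGF1 and IL-1α, which lack a signal peptide. Its level was 6.77, 8.56 and 11.5 CPM in 4T1 DOX and 4.67, 6.89 and 8.87 CPM in HC11 DOX (log2 fold change 0.33 ± 0.13, adjusted p = 0.0275, edgeR), and only 3 of 8 4T1 libraries were above all HC11 DOX libraries. The call was lost without 4T1 libraries 1 and 2 (adjusted p = 0.0769), without library 2 (0.053) or library 4 alone (0.0562), and in a fit of all 3 groups (0.16). S100a1, best known in heart and skeletal muscle, where it binds calcium channels and pumps, had 14.1, 15.6 and 25.0 CPM in 4T1 DOX and 15.0, 17.2 and 23.0 CPM in HC11 DOX. Its log2 fold change of -0.00 ± 0.11 did not pass the test (adjusted p = 0.975, edgeR).

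**Figure D3:**
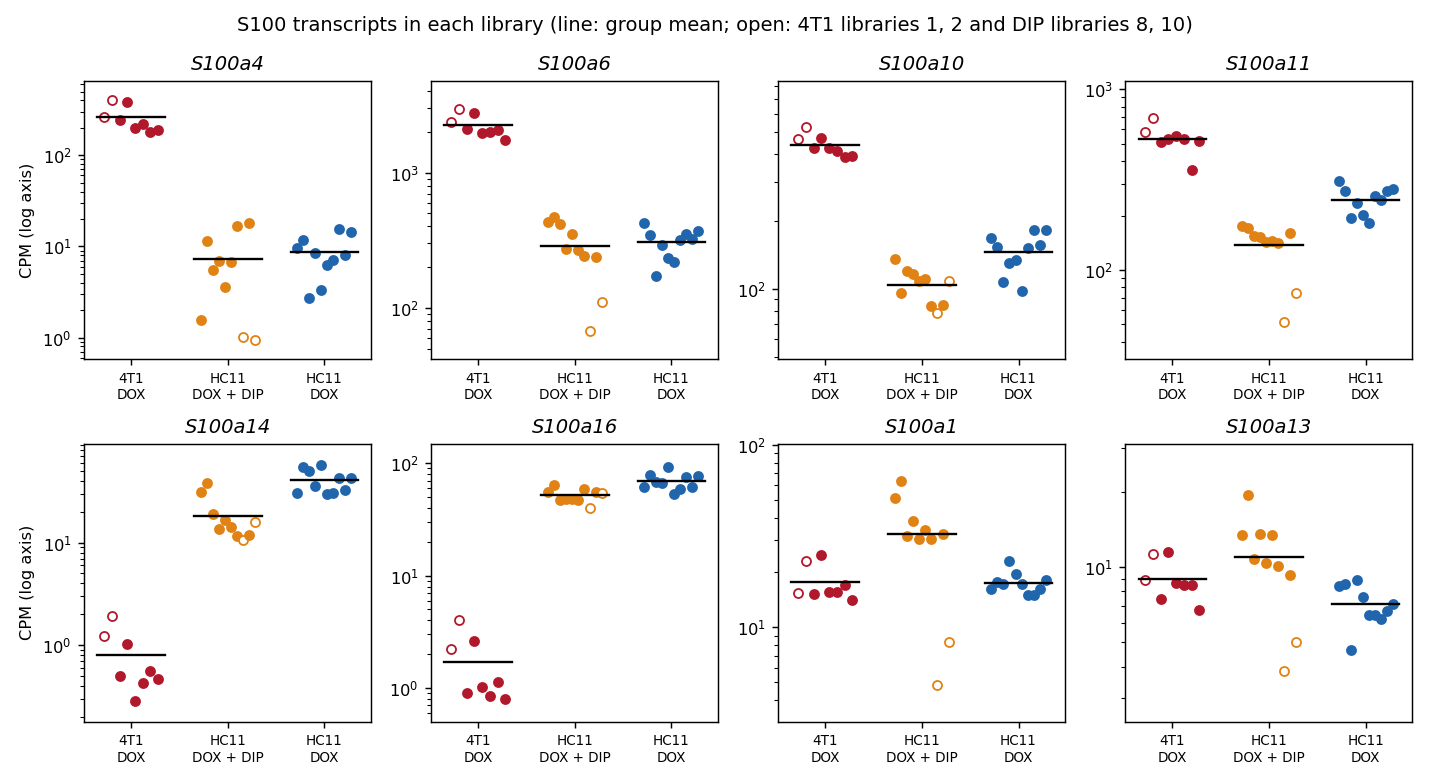
CPM of 8 S100 genes in each library (log axis; a point is a library, the line the group mean), with the groups 4T1 DOX, HC11 DOX + DIP and HC11 DOX from left to right. Open points mark 4T1 libraries 1 and 2 and HC11 DOX + DIP libraries 8 and 10: S100a4 lies at 182 to 408 CPM in 4T1 DOX, 0.930 to 18.0 in HC11 DOX + DIP and 2.74 to 15.7 in HC11 DOX, and S100a14 at 0.285 to 1.94, 10.6 to 38.3 and 29.6 to 57.9 CPM in the same order of groups.

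With DIP in HC11, the family split. S100a1 and S100a13 rose, as did S100a8, which had enough counts to be tested only through the libraries with DIP. S100a14, S100a11, S100a10 and S100a16 fell, S100a4 and S100a6 did not pass the test and S100a9 was too low to be tested. Thus 3 of the 9 members tested rose and 4 fell, where 24.5% of all 23829 genes tested rose and 21.0% fell (45.5% in either direction). The median log2 fold change was -0.24 over the 9 members tested and 0.06 over all genes tested. Without HC11 DOX + DIP libraries 8 and 10 the counts were again 3 higher and 4 lower, and the median of the members was 0.03. The 2 comparisons against HC11 DOX share those 10 libraries.

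The clearest fall was that of S100a11, at 51.5, 148 and 175 CPM in HC11 DOX + DIP and 182, 251 and 311 CPM in HC11 DOX. Its log2 fold change was -0.82 ± 0.18 (adjusted p = 0.000762, edgeR), a 1.76-fold drop, and the groups did not overlap. The lowest values, 51.5 and 74.3 CPM, were those of libraries 8 and 10, and without them the log2 fold change was -0.64 (adjusted p = 2.35e-05). S100a14 fell further, with 10.6, 15.0 and 38.3 CPM in HC11 DOX + DIP and 29.6, 39.1 and 57.9 CPM in HC11 DOX. Its log2 fold change was -1.13 ± 0.23 (adjusted p = 0.000355, edgeR), and 8 of 10 HC11 DOX + DIP libraries lay below all HC11 DOX libraries. The exceptions were HC11 DOX + DIP libraries 1 and 2, at 31.1 and 38.3 CPM, within the HC11 DOX range. Libraries 8 and 10, at 10.6 and 15.8 CPM, were among those below.

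S100a10 and S100a16 changed less. S100a10 had 78.2, 108 and 136 CPM in HC11 DOX + DIP and 98.1, 153 and 183 CPM in HC11 DOX (log2 fold change -0.47 ± 0.12, adjusted p = 0.00368, edgeR), with 4 of 10 HC11 DOX + DIP libraries below all HC11 DOX libraries. S100a16 had 39.8, 51.3 and 63.7 CPM in HC11 DOX + DIP and 53.5, 67.2 and 93.3 CPM in HC11 DOX (log2 fold change -0.39 ± 0.11, adjusted p = 0.005, edgeR), with 5 of 10 below. The S100a16 call was lost in a fit of all 3 groups (adjusted p = 0.117). The pair S100a14 and S100a16, whose log2 fold changes between the lines were close, differed here in size. The count of S100a16 was 1.66 to 5.17 times that of S100a14 in HC11 DOX + DIP (median 3.37) and 1.36 to 1.997 times in HC11 DOX (median 1.80). In 4T1 DOX it was 1.72 to 3.57 times (median 2.03), and the ranges of the 3 groups overlap.

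Of the members that rose, S100a1 had 4.85, 32.0 and 63.5 CPM in HC11 DOX + DIP and 15.0, 17.2 and 23.0 CPM in HC11 DOX. The log2 fold change was 0.92 ± 0.30 (adjusted p = 0.0165, edgeR). The HC11 DOX + DIP group was divided: 8 libraries, at 30.4 to 63.5 CPM, lay above all HC11 DOX libraries, and libraries 8 and 10, at 4.85 and 8.30 CPM, lay below all of them. Without those 2 the log2 fold change was 1.17 (adjusted p = 8.84e-07), and limma voom on all libraries did not call S100a1 (adjusted p = 0.156).

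S100a13 followed its neighbour. It had 3.85, 10.6 and 19.5 CPM in HC11 DOX + DIP and 4.67, 6.89 and 8.87 CPM in HC11 DOX, a log2 fold change of 0.65 ± 0.22 (adjusted p = 0.0188, edgeR; 0.0619 in limma voom). Again 8 libraries with DIP lay above all HC11 DOX libraries, and libraries 8 and 10 were the lowest of their group, at 3.85 and 5.03 CPM. Without these 2 the log2 fold change of S100a13 was 0.85 (adjusted p = 6.45e-05). Across the 28 libraries S100a1 and S100a13 had the most alike patterns of the 28 pairs of the 8 members with more than a few counts, with a root mean square difference of 0.37 between their centred log2 CPM values. S100a10 with S100a11 (0.39) and S100a14 with S100a16 (0.51) came next, and the genes of each of these 3 pairs are chromosomal neighbours. Not all neighbours were alike: S100a13 and S100a14, 2274 bases apart, differed by 2.58, rank 18 of the 28 pairs. The measure also favours genes that vary little, such as S100a13 and S100a1, whose centred log2 CPM had a root mean square of 0.50 and 0.74.

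S100a4 and S100a6 varied widely among HC11 libraries. S100a4 had 0.930, 6.14 and 18.0 CPM in HC11 DOX + DIP and 2.74, 8.25 and 15.7 CPM in HC11 DOX (log2 fold change -0.24 ± 0.48, adjusted p = 0.719, edgeR). S100a6 had 67.2, 270.4 and 470 CPM in HC11 DOX + DIP and 171, 322 and 427 CPM in HC11 DOX (log2 fold change -0.07 ± 0.26, adjusted p = 0.867, edgeR). Without libraries 8 and 10 the log2 fold changes were 0.03 for S100a4 and 0.16 for S100a6, so their sign rests on these 2 libraries, and neither was called. Libraries 8 and 10 were the lowest of the HC11 DOX + DIP group for both, at 1.006 and 0.930 CPM for S100a4 and 67.2 and 111 CPM for S100a6. The median S100a4 value with DIP does not describe a common level, since the other 8 libraries also ran from 1.55 to 18.0 CPM.

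S100a8 and S100a9 form calprotectin, the main calcium-binding protein of neutrophils, and were close to the limit of detection. S100a8 had 15 to 41 counts in each HC11 DOX + DIP library (249 in all) and 0 to 8 counts in HC11 DOX libraries (25 in all, in 6 of 10). The log2 fold change was 3.21 ± 0.50 (adjusted p = 2.17e-05, edgeR) and the groups did not overlap, and the highest level was 0.219 CPM. S100a8 had enough counts to be tested only through the libraries with DIP, the group where it is high. The p-value and the lack of overlap therefore describe these counts and lend them no separate support. In 4T1 DOX S100a8 had 0 to 12 counts (43 in all). S100a9 had 2 counts in each of 4 HC11 DOX + DIP libraries and 0 in all other libraries, under the limit that a count of 0 allows. Of the 14 myeloid markers Ptprc and Tyrobp were at most 0.0606 and 0.0119 CPM in any library. Some others had more RNA with DIP: Cd68 was called higher (log2 fold change 1.39 ± 0.26, adjusted p = 0.000154, edgeR) and Lyz2 was not (0.95 ± 0.44, 0.0878). Camp and Cebpe, too low to be tested, had 109 and 58 counts over the HC11 DOX + DIP libraries and 24 and 13 over the HC11 DOX libraries. Libraries 8 and 10 held 50 and 56 of those counts with DIP, and had 10.8 and 12.8 CPM of Cd68 against 2.71 to 7.92 CPM in the other 8. Further markers went the other way, with 45 counts of Ly6g, 61 of Itgam and 374 of Fcer1g with DIP and 127, 143 and 381 in HC11 DOX. The part of these markers in the S100a8 result was not tested. The myeloid marker sum was highest in HC11 DOX + DIP libraries 8 and 10, at 27.4 to 27.9 CPM, mostly Csf1r and Cd68, and S100a8 had 16 and 15 counts there, at the low end of its group.

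**Figure D4:**
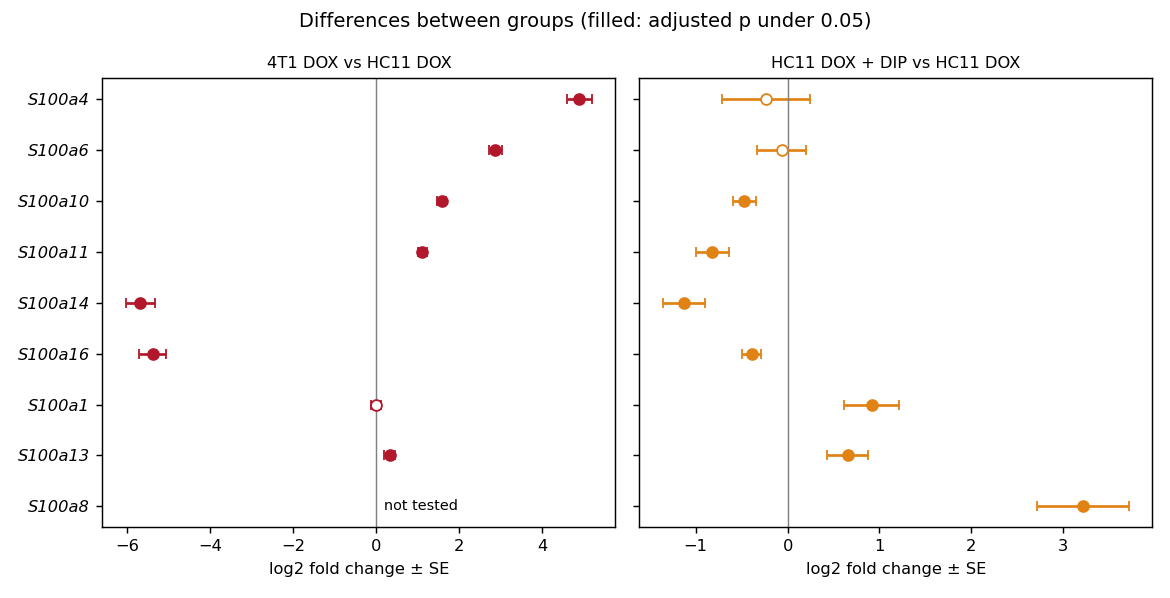
Log2 fold change ± SE of the S100 members for 4T1 DOX against HC11 DOX (left) and HC11 DOX + DIP against HC11 DOX (right), with filled points at an adjusted p under 0.05 in edgeR. S100a4 is at 4.89 and S100a14 at -5.68 in the left panel, and S100a8 at 3.21 and S100a14 at -1.13 in the right panel; S100a9 is not drawn and S100a8 was not tested in the left panel.

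Set directly against HC11 DOX + DIP, 4T1 DOX differs in both line and DIP label, which cannot be told apart. Of the 9 members tested 4 were higher (S100a4, S100a6, S100a10 and S100a11) and 4 lower (S100a1, S100a8, S100a14 and S100a16), with S100a13 not called. S100a9 was not tested. Of all 24132 genes tested 73.8% passed, 35.9% upward and 37.9% downward. The median log2 fold change was -0.24 over the 9 members tested and -0.04 over all genes. The log2 fold changes were 5.22 ± 0.55 for S100a4 (adjusted p = 6.69e-08, edgeR), 3.02 ± 0.29 for S100a6, 2.12 ± 0.11 for S100a10 and 2.01 ± 0.19 for S100a11. The log2 fold changes were -4.90 ± 0.33 for S100a16, -4.46 ± 0.41 for S100a14 and -2.01 ± 0.47 for S100a8. S100a8 had enough counts to be tested here only through the libraries with DIP. The groups did not overlap in any of these genes, but how many of all genes did not overlap was not counted. For S100a1 (-0.84 ± 0.34, adjusted p = 0.0338, edgeR) the call was lost in limma voom (0.2) and without any of 8 of the 18 libraries left out in turn (up to 0.0677), while without HC11 DOX + DIP libraries 8 and 10 it was -1.16 (3.58e-06). For S100a13, 4T1 DOX was lower by a log2 fold change of -0.24 that did not pass (adjusted p = 0.357, edgeR), and without those 2 libraries it did, at -0.51 (0.00392).

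Of 10 further genes matched, 9 other S100 genes and S100pbp, which encodes a binding protein of S100P, 5 had enough counts to be tested. S100b, a ligand of RAGE best known from glia, rose with DIP, at 0.158, 8.71 and 44.6 CPM in HC11 DOX + DIP and 0.173, 0.425 and 0.839 CPM in HC11 DOX (log2 fold change 4.59 ± 0.70, adjusted p = 1.68e-05, edgeR). The 8 libraries other than 8 and 10 were all above HC11 DOX, and libraries 8 and 10 were at 0.158 and 0.181 CPM. It was the only gene of this list called with DIP (1 of 5 tested), where 45.5% of all genes were called. Without libraries 8 and 10 S100a7a (1.38, adjusted p = 0.00316, edgeR) and S100pbp (0.36, 0.0283) were called higher too. In 4T1 DOX against HC11 DOX, 2 of 5 rose, S100a7a (3.47 ± 0.42, adjusted p = 3.4e-07) and S100a3 (2.54 ± 0.37, 4.26e-06), and S100b fell (-2.61 ± 0.37, 3.08e-06), all in edgeR. Of all genes 69.9% were called there, 34.3% upward and 35.6% downward. Against HC11 DOX + DIP, 2 were higher, S100a3 (2.71) and S100a7a (2.45), and 2 lower, S100b (-7.12) and S100pbp (-0.34, adjusted p = 0.0367, edgeR), where 73.8% of all genes were called. S100a3 also shares exon bases with Gm42674.

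Annexins, the calcium-dependent membrane binders that S100 proteins dock to, were looked at as a list of 12, of which 10 could be tested. In 4T1 DOX against HC11 DOX 6 rose and 2 fell (median log2 fold change 0.52), where 34.3% of all genes tested rose and 35.6% fell. The largest changes were in Anxa8 (-2.03 ± 0.21, adjusted p = 4.96e-08), Anxa9 (1.33 ± 0.14, 4.19e-08), Anxa3 (1.27 ± 0.08, 5.54e-11) and Anxa6 (-1.07 ± 0.10, 6.69e-09), by edgeR. With DIP 2 rose, Anxa3 (0.75 ± 0.19) and Anxa9 (0.48 ± 0.15), and 2 fell, Anxa8 (-2.24 ± 0.31) and Anxa2 (-0.79 ± 0.15), with a median of 0.01. That is 4 of 10 called, near the 45.5% of all genes. Anxa2 had 156, 371 and 418 CPM in HC11 DOX + DIP and 509, 618 and 738 CPM in HC11 DOX (adjusted p = 0.000189, edgeR), with no overlap. Thus S100a10 and Anxa2 were both lower with DIP and both higher in 4T1, and Anxa1, the partner of S100a11, rose in 4T1 (0.70 ± 0.16, adjusted p = 0.000848; chosen with its value known) and did not pass with DIP (0.34 ± 0.24, 0.264). In 4T1 DOX against HC11 DOX + DIP 5 annexins were higher and 1 lower, led by Anxa2 (1.74), Anxa7 (1.24), Anxa6 (-0.93) and Anxa9 (0.92). Of all genes 73.8% were called there, 35.9% higher and 37.9% lower. Without 4T1 libraries 1 and 2 only 3 were higher, since Anxa3 (adjusted p = 0.0513, edgeR) and Anxa11 (0.0522) no longer passed, and without HC11 DOX + DIP libraries 8 and 10 there were 4 higher and 2 lower.

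Of 18 other intracellular or export partners that could be tested, 11 rose and 3 fell in 4T1 DOX against HC11 DOX (median log2 fold change 0.36), where 69.9% of all genes were called. The largest changes were Ppfibp2 (-6.44 ± 0.47), a liprin; Tpm2 (-5.67 ± 0.37), a tropomyosin; Fgf1 (-4.14 ± 0.24), the export cargo of S100A13; and Il1a (1.74 ± 0.51, adjusted p = 0.00483, edgeR), another such cargo. With DIP 3 rose and 8 fell (median -0.36), or 4 and 10 without libraries 8 and 10, where 24.5% of all genes rose and 21.0% fell. The changes were led by the falls of the actin-binding Tagln2 (-1.69 ± 0.11, adjusted p = 3.22e-11) and Tpm1 (-1.13 ± 0.18, 2.3e-05) and the rises of Fgf1 (1.56 ± 0.48, 0.0109) and Ppfibp1 (1.01 ± 0.18, 0.000121), by edgeR. Fgf1 had 0.717, 27.3 and 39.1 CPM in HC11 DOX + DIP and 5.85, 7.55 and 11.9 CPM in HC11 DOX, with 8 of 10 libraries with DIP above all HC11 DOX libraries and 2 below. In 4T1 DOX against HC11 DOX + DIP 12 partners were higher and 5 lower (73.8% of all genes called), with the largest changes in Ppfibp2 (-6.02), Fgf1 (-5.61), Tpm2 (-4.63) and Il1a (2.85).

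Among 8 genes for receptors and surface partners described for S100 proteins, 6 could be tested, and 5, 4 and 4 of them were called in the 3 comparisons below, against 69.9%, 45.5% and 73.8% of all genes. In 4T1 DOX against HC11 DOX, Bsg rose (0.28 ± 0.07, adjusted p = 0.00096), and Fgfr1 (-5.84 ± 0.43), Egfr (-4.55 ± 0.18), Ager (-1.22 ± 0.15) and Tlr4 (-0.48 ± 0.19, 0.0303) fell, while Alcam did not pass (0.42 ± 0.23, 0.104), by edgeR. Without 4T1 libraries 1 and 2 the Tlr4 call was lost (adjusted p = 0.0788, edgeR) and Fgfr1 was at -6.67. With DIP, Tlr4 (1.44 ± 0.22, 1.91e-05), Alcam (1.02 ± 0.38, 0.0316), Ager (0.69 ± 0.25, 0.0276) and Bsg (0.28 ± 0.09, 0.0117) rose, while Egfr (-0.26, 0.477) and Fgfr1 (0.44, 0.299) did not pass, again with adjusted p-values of edgeR. Without HC11 DOX + DIP libraries 8 and 10 Fgfr1 was called higher as well (0.71, adjusted p = 0.00386). Ager, the gene of RAGE, was low throughout, at 0.273 to 0.467 CPM in 4T1 DOX, 0.471 to 2.78 CPM in HC11 DOX + DIP and 0.692 to 1.12 CPM in HC11 DOX. Tlr4 had 5.47 to 8.16 CPM in 4T1 DOX, 15.7 to 37.4 CPM in HC11 DOX + DIP and 3.97 to 16.3 CPM in HC11 DOX. Cd36 and Ermap were not tested, at no more than 0.473 and 0.129 CPM. In 4T1 DOX against HC11 DOX + DIP 4 receptors were lower (Fgfr1 -6.19, Egfr -4.20, Tlr4 -1.85 and Ager -1.83) and 0 higher, while Bsg (0.08) and Alcam (-0.52) did not pass. At an unadjusted p under 0.05 too the count of those higher was 0.

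**Figure D5:**
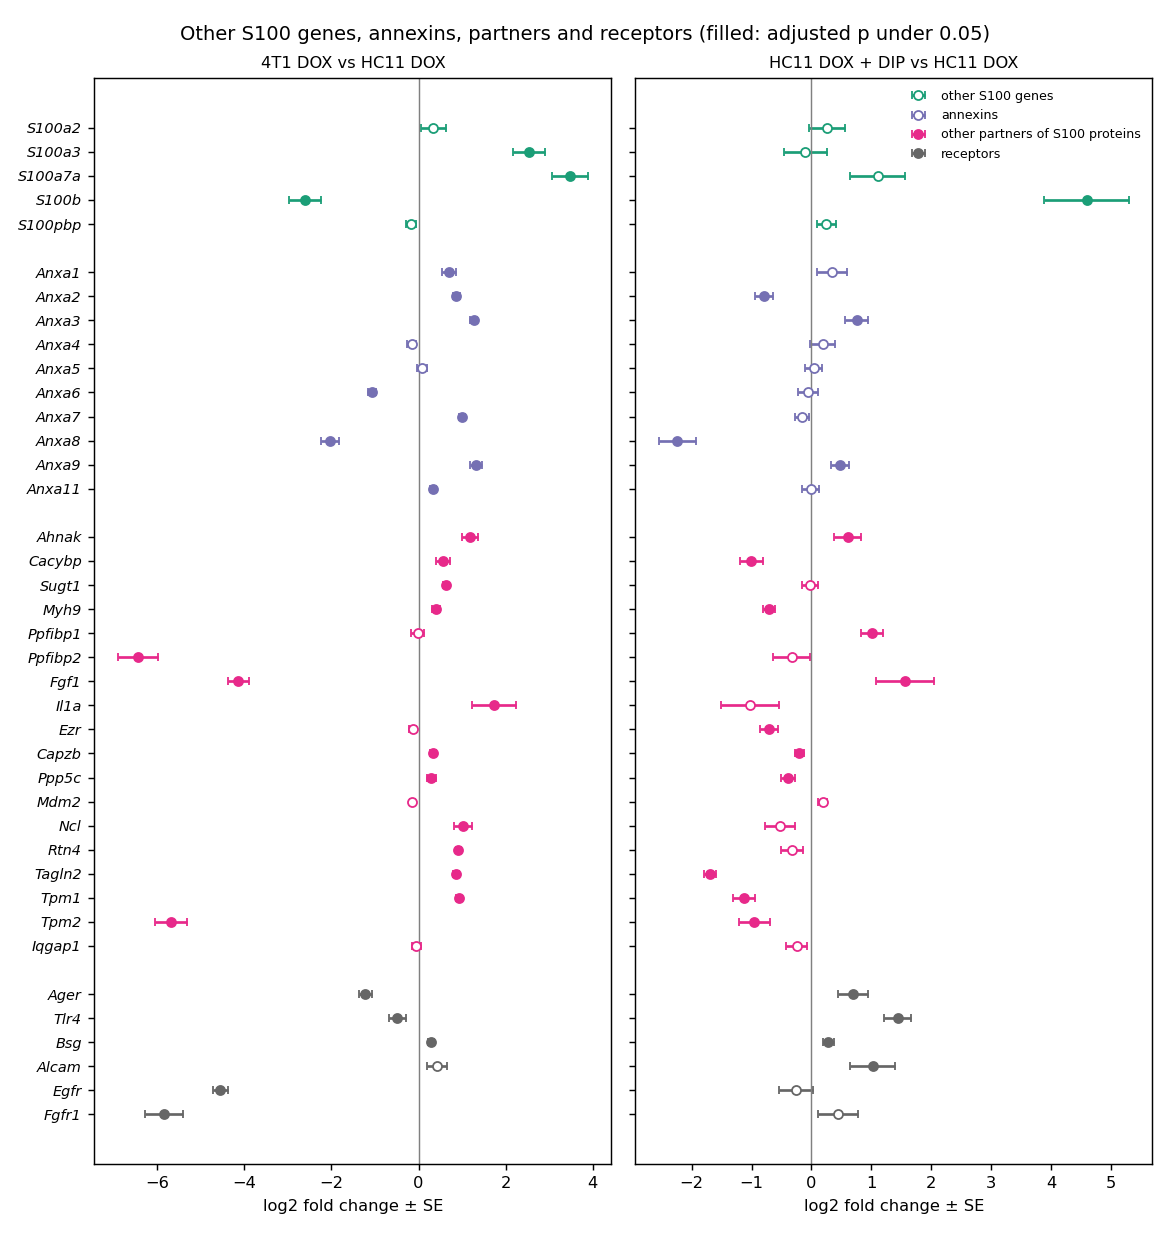
Log2 fold change ± SE of other S100 genes, annexins, other partners and receptors for 4T1 DOX against HC11 DOX (left) and HC11 DOX + DIP against HC11 DOX (right), filled at an adjusted p under 0.05 in edgeR. In 4T1, Anxa2 (0.86), Tagln2 (0.85) and Tpm1 (0.92) are right of 0 and Tpm2 (-5.67), Fgf1 (-4.14) and Fgfr1 (-5.84) far left, while with DIP Anxa2 (-0.79), Tagln2 (-1.69) and Tpm1 (-1.13) are left of 0 and Fgf1 (1.56) is right of it.

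Genes with a pattern most like that of a strongly varying member were sought among 10063 genes, by the root mean square difference of centred log2 CPM over the 28 libraries. Most like S100a4 were Crip1 (difference 0.86), a LIM domain gene with mean levels of 184 CPM in 4T1 DOX, 5.72 in HC11 DOX + DIP and 10.6 in HC11 DOX, and Prkg2 (0.98). Most like S100a6 were Krt8 (0.44), the keratin of simple epithelia, at 1059 CPM in 4T1 DOX, 122 in HC11 DOX + DIP and 140.1 in HC11 DOX, and Cpne2 (0.45). Most like S100a14 were Mb21d2 (0.44) and Plb1 (0.44), and most like S100a16 were Mb21d2 (0.30) and Myh14 (0.34). Myh14, a non-muscle myosin heavy chain, had 5.58 CPM in 4T1 DOX, 149.98 CPM in HC11 DOX + DIP and 206 CPM in HC11 DOX. Most like S100a8, whose own pattern rests on few counts, were Sat1 (0.82), at 47.9 CPM in 4T1 DOX, 155 CPM in HC11 DOX + DIP and 29.8 CPM in HC11 DOX, and Wfs1 (0.87). The 28 points share their 2 lines and 3 groups, so they are not independent.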

How the data were processed

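Total RNA was extracted with TRIzol and made into libraries after removal of ribosomal RNA, per the labels' protocols. Each deposited file holds the counts of 1 library, as whole reads for each gene, which the authors made with fastp 0.23.2 and featureCounts 2.0.1 on build GRCm39, per the submitters' processing notes. The aligner is not given in the sources used here, nor is the strand setting, so a gene and an overlapping one on the other strand may share reads. Every file listed the same 56748 genes, and all values were whole numbers. Symbols and union exon lengths came from GENCODE vM21 by Ensembl identifier (52125 matched). Since its build differs from that of the counts, coordinates are given only for the RefSeq sequences, with their build. The edges of the gap between S100a1 and S100a13 are those of GENCODE vM21.

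Groups came from the cell line and treatment labels. Library numbers follow the sequence of accessions and serve as names; they pair nothing. No 2 libraries of a group were copies (lowest chi-square per degree of freedom 16.3). Each comparison used the libraries of its 2 groups in edgeR 4.0.16 under R 4.3.3 (filterByExpr, TMM, robust glmQLFit, glmQLFTest), with Benjamini-Hochberg adjustment over all genes tested and calls at an adjusted p under 0.05. For CPM, TMM factors were taken over the 28 libraries together, and log2 CPM had a prior count of 2. The procedure was tested on simulated data. Alternatives were size factors of the DESeq2 kind, no filter on low counts, DESeq2 1.42.0, limma voom (limma 3.58.1), a fit of all 3 groups and leaving out libraries.

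The members, lists and alternatives were chosen with earlier results of these data known. Besides the members, the text names up to 4 called genes per list and comparison with the largest absolute log2 fold change, every receptor, and, for members whose centred log2 CPM has a root mean square of at least 1, the 2 genes most like them whose log2 CPM averaged 2 or more. This last search covered S100a4, S100a6, S100a8, S100a14 and S100a16. Of the partners listed, 1, Septin2, matched no symbol, and 2 other S100 genes were matched through RefSeq synonyms.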

Additional observations from a re-analysis of the deposited data

Results flagged for a closer look

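S100a11 in 4T1 DOX library 7 was at 356 CPM, apart from the other 7 libraries of its group, which lay between 507 and 692 CPM. On log2 CPM its gap to the nearest library was 0.531 of the range of the group, against Dixon's critical value of 0.526 for 8 samples; on CPM itself the gap was 0.448 of the range, which does not pass. It was the only such value among 24 combinations of a member and a group that were checked, and chance gives about 1 in 20.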

How the results depend on the processing

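In 651 alternative values of 26 single-gene results, 634 kept their side of the threshold, 622 of them also their sign, 16 were no longer called and 1 became called. The sign turned in 12 values, none of them called: S100a1 in 4T1 DOX against HC11 DOX (8 values, up to 0.05), and with DIP S100a6 (3, up to 0.16) and S100a4 (1, 0.03). The 16 concern S100a1, S100a13 and S100a16 alone and their values stand beside the results above. The number of all genes called with DIP was 10244 to 11438 with 1 library left out and 10527 to 12803 under the other settings, and that of members 7 to 7 and 5 to 8. For 4T1 DOX against HC11 DOX the ranges were 16229 to 16916 and 16184 to 20794 genes, and 6 to 7 members in each. For 4T1 DOX against HC11 DOX + DIP they were 17132 to 18304 and 17535 to 22882 genes, and 7 to 8 and 7 to 9 members. No paired analysis was possible because the labels carry no replicate numbers. Depth limits S100a8 and S100a9, whose counts are close to 0.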
